A study of Homo sapiens with 19 samples.

Results

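Distal regions carrying acetylation of lysine 27 of histone H3 (H3K27ac) in acute myeloid leukaemia (AML) cell lines, and lacking it in K562, were described here. They were chosen by the presence of peaks in 4 H3K27ac chromatin immunoprecipitation (ChIP-seq) lists. Starting from the OCI-AML3 list on chromosomes 1 to 22 and X, a region was kept when it lay more than 2 kb from every annotated transcription start site (TSS). It also had to share at least 1 bp with a peak in both Molm13 and HL-60, and none with a K562 peak. This left 1778 regions, called members below, of 21017 distal OCI-AML3 regions (8.46%) and of 37531 OCI-AML3 regions in all. HL-60 and Molm13 are AML lines that were left untreated. OCI-AML3, a further AML line, and K562, a chronic myelogenous leukaemia line, had been transduced with a lentivirus for dCas9-KRAB-mCherry, in which catalytically dead Cas9 is fused to a repressor domain. They then received the empty guide vector with a BFP reporter and were sorted for both colours. Line and vector could therefore not be told apart for OCI-AML3 and K562. A further list, for dCas9, came from K562 cells with the same fusion and 4 guide RNAs against LTR2B, a repeat family of endogenous retroviruses. Of the 19 samples of the series these 5 were used, each the only library of its group, so no test between lines was possible. All shares below carry Wilson 95% intervals or counts, which cover counting error only, since regions and genes are not replicates.

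H3K27ac marks active promoters and enhancers, and enhancers differ between cell types more than promoters do. In the granulocyte and monocyte branch of blood formation, enhancers are opened by PU.1 (encoded by SPI1), the C/EBP family and RUNX factors. Erythroid and megakaryocytic cells rely on GATA1, with KLF1 in the erythroid branch, and K562 cells are known for erythroid features. The erythroid markers GATA1, KLF1, HBG1, HBG2 and EPOR had a promoter peak in K562 and in none of the AML lines. Of 6 myeloid markers (SPI1, CEBPA, CEBPE, MPO, CSF3R, CD33), 6 had one in OCI-AML3, 6 in Molm13, 5 in HL-60 and 3 in K562. The 3 marked in K562 were SPI1, CSF3R and CD33.

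Sequences of 5 members are shown because the protein-coding genes nearest to them belong to the myeloid programme. The member shown for RUNX3 lay 81.1 kb from a TSS of that gene, and the others 6.46 to 35.2 kb from theirs. Each is a stretch of 300 bases of hg38, plus strand, 5′ to 3′. It is the middle of the interval that the peaks of the 3 AML lines have in common. Capitals mark exact matches, on either strand, to TTGCNNAA (C/EBP), with N for any base, or to TGTGGTT (RUNX). GAGGAAGT, the letters searched for PU.1, and those searched for the GATA factors (AGATAAG) occur in no window shown. A match is a description of the letters and not a bound site.
CEBPA chr19:33267219-33267518: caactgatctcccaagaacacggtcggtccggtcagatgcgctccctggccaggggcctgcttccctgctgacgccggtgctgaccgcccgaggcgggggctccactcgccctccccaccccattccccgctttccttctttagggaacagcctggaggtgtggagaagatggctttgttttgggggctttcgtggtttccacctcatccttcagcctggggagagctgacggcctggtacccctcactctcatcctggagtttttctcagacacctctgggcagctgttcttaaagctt
CEBPA chr19:33293591-33293890: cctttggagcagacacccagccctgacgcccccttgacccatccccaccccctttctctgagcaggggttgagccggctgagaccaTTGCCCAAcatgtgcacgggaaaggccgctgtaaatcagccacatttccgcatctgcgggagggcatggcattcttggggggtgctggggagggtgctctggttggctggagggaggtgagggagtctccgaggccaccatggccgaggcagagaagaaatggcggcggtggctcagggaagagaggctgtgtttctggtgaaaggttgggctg
RUNX3 chr1:24848421-24848720: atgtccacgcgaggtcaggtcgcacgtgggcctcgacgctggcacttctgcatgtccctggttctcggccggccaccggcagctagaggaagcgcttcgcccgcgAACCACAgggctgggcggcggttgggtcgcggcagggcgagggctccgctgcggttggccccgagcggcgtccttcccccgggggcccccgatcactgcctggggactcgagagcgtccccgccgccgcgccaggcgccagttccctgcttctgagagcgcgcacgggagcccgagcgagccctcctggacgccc
SRGN chr10:69046954-69047253: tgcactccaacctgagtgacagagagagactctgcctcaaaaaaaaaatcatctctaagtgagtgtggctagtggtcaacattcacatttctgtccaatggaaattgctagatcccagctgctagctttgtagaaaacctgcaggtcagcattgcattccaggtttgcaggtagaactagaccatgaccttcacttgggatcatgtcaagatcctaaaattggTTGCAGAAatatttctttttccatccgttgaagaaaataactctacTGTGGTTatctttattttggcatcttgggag
TLR4 chr9:117724773-117725072: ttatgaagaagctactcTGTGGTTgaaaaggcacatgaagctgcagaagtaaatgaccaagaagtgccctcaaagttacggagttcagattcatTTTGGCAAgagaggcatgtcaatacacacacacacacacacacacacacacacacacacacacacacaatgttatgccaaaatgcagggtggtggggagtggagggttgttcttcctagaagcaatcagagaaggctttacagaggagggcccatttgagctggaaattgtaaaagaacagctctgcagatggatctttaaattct

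The first CEBPA window held none of these matches, although its region had the highest standing, defined below as the lowest of its percentiles of enrichment in the 3 AML lists. The second CEBPA window held 1 C/EBP match and the RUNX3 window 1 RUNX match. The SRGN and TLR4 windows each held 1 C/EBP and 1 RUNX match. The TLR4 window lay just past the end of TLR4, within an intron of a read-through gene that overlaps it, and the other windows were intergenic.

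Within the OCI-AML3 list the members were broad and moderately strong. Their median width was 2114.5 bp, against 1015 bp for all distal OCI-AML3 regions, 1309 bp for the 5834 regions found in Molm13 and OCI-AML3 only, and 2335.5 bp for the 1168 regions of all 4 lines. The median fold enrichment over local background given by the authors was 3.41 in members, 2.75 in all distal regions and 3.61 in the regions of all 4 lines. Widths and enrichments describe the choice of members and were not tested, since a broad region meets a peak of another list more readily. Members lay a median of 29.9 kb from the nearest protein-coding TSS, against 29.5 kb for all distal regions and 17.0 kb for the regions of all 4 lines. By position 887 members (49.9%) were intronic, 600 (33.7%) intergenic and 291 (16.4%) touched an exon. In all distal regions the shares were 58.1%, 30.4% and 11.5%, respectively.

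The members did not stand equally high in the 3 AML lists. Each member was given its percentile of fold enrichment within each list, using the strongest overlapping peak in Molm13 and HL-60. The HL-60 list was the shortest, with 20733 peaks, while the Molm13 list held 35069 and that of OCI-AML3 37531. Equal percentiles thus stand for different ranks, and the top 10% of the HL-60 list holds fewer peaks. The part of list length in the differences below was not tested. The median percentile was 65.1 in Molm13, 67.0 in OCI-AML3 and 50.2 in HL-60. Fold enrichments ran from 1.29 to 7.22 with a median of 3.41 in OCI-AML3, from 1.47 to 15.8 with a median of 4.52 in Molm13, and from 1.43 to 12.4 with a median of 3.60 in HL-60. In the top 10% of the list lay 149 members in Molm13, 263 in OCI-AML3 and 46 in HL-60. HL-60 gave the lowest of the 3 percentiles for 1014 members (57.0%). HL-60 peaks also covered less of each member, with a median of 43.8% of its length against 76.6% for Molm13 peaks. Across members the Spearman correlation of fold enrichment was 0.60 between OCI-AML3 and Molm13, 0.25 between OCI-AML3 and HL-60, and 0.34 between Molm13 and HL-60. These correlations are over 1778 regions of single libraries, chosen for peaks in all 3, and are a description only. The sequencing depth behind the lists is unknown.

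The standing of a member was set as the lowest of its 3 percentiles, so that a high standing means a strong peak in all 3 AML lines. Of the members 628 had a standing above 50 and 13 above 90. The highest standing, 97.5, belonged to a region of 4977 bp at chr19:33264631-33269607, 32.9 kb from the TSS of CEBPA, the transcription factor that directs granulocyte differentiation. Its fold enrichment was 12.5 in Molm13, 5.98 in OCI-AML3 and 9.11 in HL-60. The next regions lay nearest to TEX44 (14.2, 5.18 and 12.4 in the same order) and SYNJ2 (15.8, 5.56 and 7.58), an inositol phosphatase. RBPJ, the DNA-binding partner of Notch, followed with 10.1, 6.44 and 7.56, and then SLC1A4, a transporter of neutral amino acids, with 8.82, 4.90 and 7.78.

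The other members among the 20 of highest standing lay nearest to DNAJB6, JARID2, FRY, INPP5F, GLIPR2, RAB40AL, MBP, CEBPA again, PCNX1, CAMKK2, HDAC4, RUNX3, INPP5A, ORAI2 and MRPS10, down to a standing of 88.2. Of the 20, 7 were intronic, 7 intergenic and 6 touched an exon. The nearest gene had a promoter peak in OCI-AML3 for 17 of them and in K562 for 10. For 5 of them, nearest to CEBPA (2 regions), FRY, MBP and PCNX1, the promoter was marked in the 3 AML lines and not in K562. In the 1 kb around the midpoint a RUNX match was present in 9 of the 20, a C/EBP match in 7, a PU.1 match in 1 and a GATA match in 0.

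A small group of members formed very broad domains. In all, 49 members were 10 kb or wider. The widest covered 30.0 kb within an intron of COL23A1 at chr5:178474825-178504831, a gene for a transmembrane collagen, with a fold enrichment of 9.89 in Molm13, 4.00 in OCI-AML3 and 4.53 in HL-60. A domain of 25.5 kb lay in FRY, one of 23.3 kb in ATP8B4, one of 21.8 kb downstream of BCL2, and one of 18.4 kb upstream of GATA2 and nearest to RPN1. BCL2 blocks apoptosis, and its domain reached 10.3, 4.33 and 7.30 in the same order.

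Members gathered around some genes. They were nearest to 1353 protein-coding genes, of which 270 had at least 2 members and 93 at least 3. PREX1, an exchange factor for Rac in leukocytes, had the most with 8 members covering 33.9 kb. CXCR4, the receptor that holds blood stem and progenitor cells in the marrow, had 7 covering 29.9 kb. After these, COL23A1, XYLT1, ARHGAP26, RAPGEF1 and HIVEP3 had 6 members each, and FRY, JARID2 and CEBPA had 5. The JARID2 members lay 295 to 425 kb from its TSS. JARID2 was also nearest to 6 regions of all 4 lines and 16 K562-only regions, and ARHGAP26 to 2 and 4. XYLT1 and HIVEP3 were each nearest to 2 K562-only regions. RAPGEF1 activates Rap1, and JARID2 is a cofactor of Polycomb repressive complex 2. Of these 10 genes, CXCR4, RAPGEF1, FRY and CEBPA had a promoter peak in the 3 AML lines and not in K562. ARHGAP26 and JARID2 had one in all 4 lines, while the promoters of PREX1 and COL23A1 were marked in OCI-AML3 and Molm13, that of XYLT1 in OCI-AML3 and HL-60, and that of HIVEP3 in OCI-AML3 alone.

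Joined over gaps of up to 50 kb, the members formed 1439 loci, of which 1198 held a single member. The 66 loci with at least 3 members held 230 members (12.9%). The locus with the most members was that of CEBPA, with 7 members over 80.6 kb at chr19:33252709-33333279 and 0 K562 peaks. HIVEP3 followed with 6 members over 45.6 kb. Loci of 5 members lay at PREX1 (104 kb), UBASH3B (66.5 kb), GNG7 (79.4 kb), ZMIZ1 (46.7 kb) and ITPKB (84.5 kb). The locus at ZMIZ1 overlapped that gene, but its members were nearest to a TSS of PPIF, 52.7 to 96.7 kb away. Loci of 4 members lay at COL23A1 and HRH2, and another, over no protein-coding gene, was nearest to JARID2. Each locus named here held 0 K562 peaks, except those of GNG7 and JARID2 with 1.

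At CEBPA, 6 members lay downstream and 1 upstream of the gene start. The downstream members began 6.46, 19.0, 27.3, 32.9, 39.7 and 45.9 kb from it, and the upstream one lay 26.5 to 30.7 kb away. Among them the fold enrichment ran from 2.86 to 5.98 in OCI-AML3, from 4.38 to 12.5 in Molm13 and from 3.03 to 9.11 in HL-60. The lowest value in each line was that of the member at 19.0 kb, and the highest that of the member at 32.9 kb. The members lay 39.3 to 94.7 kb from the nearest K562 peak. Within 100 kb of the gene OCI-AML3 had 14 peaks, Molm13 16, HL-60 12 and K562 1.

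At CXCR4 all 7 members lay upstream, between 15.7 and 264 kb from the gene start. The nearest, of 4.19 kb, had a fold enrichment of 4.93 in Molm13, 4.57 in OCI-AML3 and 5.96 in HL-60. The group between 118 and 137 kb upstream held 3 members, with 4.17 to 4.70, 3.26 to 4.19 and 3.46 to 5.61 in the same order. The nearest K562 peak was 149 kb or more away from each member. CXCR4 lay in a stretch of 1.961 Mb without any K562 peak (chr2:135986305-137947199), in which OCI-AML3 had 36 peaks and 29 distal regions, 8 of them members.

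Stretches of at least 1 Mb without K562 peaks held 297 members, or 16.7% (95% interval 15.0 to 18.5%). The share was 17.0% of all distal OCI-AML3 regions, which include regions overlapping a K562 peak that cannot lie in such a stretch. Among the regions of Molm13 and OCI-AML3 only, which also lack a K562 peak, it was higher, at 20.5% (19.5 to 21.6%). The median distance from a member to the nearest K562 peak was 33.1 kb, with quartiles of 9.68 and 125 kb. A K562 peak lay within 1 kb of 41 members and within 5 kb of 253 (14.2%), and 497 (28.0%) were more than 100 kb from any. Copy number of the K562 genome was not measured here, so loss of DNA and absence of the mark cannot be told apart. Of the 2946 distal OCI-AML3 regions with peaks in both Molm13 and HL-60, 60.4% were absent from K562, and by chromosome this share ran from 47.6% on X to 76.5% on 13.

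The members closest to a TSS lay 2011 bp (TALDO1), 2036 bp (PPP2R5C) and 2041 bp (MICALL1) away, and the nearest regions left out lay at 1978 bp (LYST and SLC4A11) and 1977 bp (IVNS1ABP). At the K562 limit the closest members ended 15 bp (MFN2), 29 bp (ARHGAP25) and 35 bp (PROC) from a K562 peak, with a fold enrichment of 2.71 to 3.17 in OCI-AML3. The regions left out with the least overlap shared 61 bp (MCM3), 92 bp (ACTN4) and 95 bp (VOPP1) with one, and had 2.99 to 3.03. Of the 1168 regions of all 4 lines, 38 shared under 10% of their length with K562.

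Promoter H3K27ac of the nearest genes addressed whether the genes next to members were themselves marked in the same lines. Promoter marking, a peak within 500 bp of a TSS, was not part of the rule, but it came from the same libraries. A broad Molm13 or HL-60 peak could also cover both a member and a promoter, so the 2 are not independent. The Molm13 peak of the CEBPA member at 6.46 kb, 8.88-fold enriched, also covered the start of CEBPA. How many genes this concerned was not counted. The nearest genes had a promoter peak in OCI-AML3 for 72.9% (70.5 to 75.2%), in Molm13 for 67.8% (65.3 to 70.3%), in HL-60 for 54.6% (52.0 to 57.3%) and in K562 for 55.1% (52.5 to 57.8%). Over all 19626 protein-coding genes the shares were 56.6%, 52.8%, 43.7% and 54.9%. The shares in the AML lines were thus above those of all genes by more than the counting error. In K562 the interval held the share of all genes. Higher shares in the AML lines were not particular to members. The nearest genes of all distal OCI-AML3 regions stood at 67.9%, 62.8%, 50.9% and 60.4% in the same order of lines. Those of K562-only regions stood at 69.5%, 65.1%, 55.4% and 73.5%. The 955 nearest genes of regions of all 4 lines were marked more often in each line, with 83.7%, 77.9%, 66.5% and 79.1%. A promoter peak in all 4 lines was found for 592 of the 1353 nearest genes of members (43.8%), and in no line for 323 (23.9%).

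A promoter marked in the 3 AML lines and not in K562 was found for 124 of the nearest genes, or 9.16% (7.74 to 10.8%), against 2.13% of all protein-coding genes. The share was 2.62% for the nearest genes of regions of all 4 lines, 4.83% for those of regions of Molm13 and OCI-AML3 only, 3.63% for those of all distal regions and 1.02% for those of K562-only regions. The reverse pattern, a promoter marked in K562 and in no AML line, was found for 23 nearest genes of members (1.70%), against 4.70% of all genes and 7.44% of the nearest genes of K562-only regions. A gene could belong to several sets. Members shared 204 nearest genes with the regions of all 4 lines, which is 15.1% of the first set and 21.4% of the second. They shared 574 with K562-only regions, which is 42.4% of the first and 9.64% of the second.

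The promoter pattern went with the number of members. Genes with 1 member had a promoter marked in the 3 AML lines and not in K562 in 69 of 1083 cases, or 6.37% (5.07 to 7.99%). With 2 members it was 27 of 177, or 15.3% (10.7 to 21.3%), and with 3 or more 28 of 93, or 30.1% (21.7 to 40.1%). The share with an OCI-AML3 promoter peak was 70.2%, 81.4% and 89.2% in these groups, and the share with a K562 promoter peak 56.7%, 53.1% and 40.9%. Besides CXCR4, RAPGEF1, FRY and CEBPA, the genes with most members and this pattern were ZNF516, UBASH3B and ITPKB, each with 5, and SATB1, VAV3, ANKRD44, PTGER4, STK10 and SEMA4D, each with 4. UBASH3B and ITPKB act in immune receptor signalling, SATB1 organises chromatin in lymphoid and progenitor cells, and PTGER4 is a prostaglandin E2 receptor. RAPGEF1 and STK10 each also had 1 region of all 4 lines and 1 K562-only region nearest to them, and the remaining genes named had 0 of either. The part of gene length, which gives long genes more nearby regions, was not tested.

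Gene lists of blood cell programmes showed which genes had a member within 50 kb of the gene body. Over all protein-coding genes 11.1% had one. The share was 11 of 24 growth factor receptors and signalling genes, or 45.8% (27.9 to 64.9%), and 10 of 26 myeloid transcription factors, or 38.5% (22.4 to 57.5%). It was 6 of 24 granule and host defence genes (25%, 12 to 44.9%), 6 of 24 leukaemia stem cell and HOX cofactor genes (25%) and 7 of 30 monocyte and granulocyte receptors (23.3%, 11.8 to 40.9%). Regions of all 4 lines lay near several of these lists too, at 10 of 26 myeloid transcription factors (38.5%), 8 of 24 growth factor receptors and signalling genes (33.3%) and 5 of 30 monocyte and granulocyte receptors (16.7%), against 9.86% of all genes. They lay near 2 of 24 granule and host defence genes (8.33%) and 5 of 24 leukaemia stem cell and HOX cofactor genes (20.8%). K562-only regions lay near 16 of 24 growth factor receptors and signalling genes (66.7%) and 10 of 26 myeloid transcription factors (38.5%), against 50.7% of all genes. For members, the lists of other lineages stood nearer to the background, with 3 of 18 megakaryocyte genes (16.7%), 4 of 24 lymphoid genes (16.7%) and 3 of 24 erythroid genes (12.5%, 4.34 to 31.0%). A K562-only region lay within 50 kb of 19 of 24 erythroid genes (79.2%), and a region of all 4 lines near 0 of 24. The lists differ in promoter activity too, with 23 of the 26 myeloid transcription factors and 4 of the 24 erythroid genes marked in OCI-AML3, and the part of this was not tested.

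Among the myeloid transcription factors, CEBPA had 7 members within 50 kb and ETV6 had 4. RUNX1, RUNX2, FLI1 and IKZF1 followed with 3, 3, 2 and 2. ETV6, a repressor of the ETS family, had its strongest member 5.14-fold enriched in OCI-AML3, 5.97-fold in Molm13 and 4.00-fold in HL-60. RUNX1 and RUNX2 are long genes, and their members lay 70.5 kb or more from a TSS of the gene. RUNX1, required for definitive blood formation, had 5 regions of all 4 lines and 14 K562-only regions within 50 kb as well. SPI1 had 1 member, of 9.04 kb, located 13.3 kb from a TSS of the gene with a fold enrichment of 3.78, 6.32 and 5.21. Its promoter was marked in all 4 lines. Within 100 kb of SPI1 there were 16 peaks in OCI-AML3, 15 in Molm13, 9 in HL-60 and 12 in K562.

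Among the growth factor receptor and signalling genes, SOCS3, a feedback inhibitor of cytokine signalling, had 3 members. PIK3CD, PIK3R5, LYN and FLT3 had 2 each. FLT3 is the receptor tyrosine kinase often mutated in AML, and its promoter was marked in the 3 AML lines and not in K562, with the strongest member 3.0-fold enriched in OCI-AML3, 4.74-fold in Molm13 and 3.32-fold in HL-60.

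TLR4, the receptor for bacterial lipopolysaccharide, had 2 members, 10.5 and 17.0 kb from a TSS, the first inside the gene and the second across its end. The first was enriched 5.16-fold in OCI-AML3, 5.44-fold in Molm13 and 4.44-fold in HL-60, and the second 4.88-fold, 5.44-fold and 6.78-fold. The Molm13 value is that of 1 peak spanning parts of both members. Within 100 kb of the gene there were 6 peaks in OCI-AML3, 4 in Molm13, 4 in HL-60 and 0 in K562, and the nearest K562 peak was 1156 kb from the first member. CCR2 and CLEC7A also had 2 members each, and CD86, CCR1 and ITGB2 had 1. CCR2 and CCR1 are chemokine receptors of monocytes, CLEC7A binds fungal glucans, and ITGB2 is the shared beta chain of the leukocyte integrins.

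Of the granule genes, BPI, CYBB and LTF had 2 members each and SRGN, CYBA and MPO 1. The member near SRGN, which encodes the proteoglycan core of granules, was 3.84-fold enriched in OCI-AML3, 8.55-fold in Molm13 and 5.19-fold in HL-60, and SRGN had a promoter peak in all 4 lines. MPO, the peroxidase of neutrophil granules, had a member with 3.44, 4.94 and 3.32 and a promoter marked in the 3 AML lines and not in K562. LTF had no promoter peak in any line. Its 2 members, 66.8 and 69.2 kb from its TSS, were the same regions counted for CCR2 above, and their nearest protein-coding gene was CCRL2. Of the stem cell list, CD34 had 3 members, BCL2 and CDK6 had 2 each, and GATA2, ID2 and CCND2 had 1. CD34, the surface antigen of progenitors, had a promoter peak in OCI-AML3 alone. That peak, 2.54-fold enriched, lay 20.5 to 21.3 kb downstream of the gene start, over another TSS of the gene. No line had a peak at the gene start itself. The CD34 members had peaks in Molm13 and HL-60 as the rule required, with 4.14-fold and 3.73-fold enrichment in the member of highest standing.

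The erythroid genes with a member were TFRC, BPGM and KLF1. TFRC, the transferrin receptor used by all dividing cells, had 2 and a promoter marked in all 4 lines. KLF1 had 1 member of 2.36, 4.14 and 4.47 and a promoter marked in K562 alone. The megakaryocyte genes were FLI1, GP1BB and TREML1, and FLI1 also counted among the myeloid factors. The lymphoid genes were ZAP70, CD4, IL7R and KLRD1, each with 1 member, and CD4 is also expressed by monocytes.

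Sequence was not used to choose the members. Exact motif matches were counted in the 1 kb around each midpoint on both strands, beside the share in all distal OCI-AML3 regions. The PU.1 letters were found in 15.0% of members (13.4 to 16.8%), against 12.5% of all distal regions, 14.0% of regions of all 4 lines and 6.80% of K562-only regions. For RUNX the shares were 26.2% (24.2 to 28.3%), 23.4%, 21.4% and 18.1%, and for C/EBP 49.4% (47.1 to 51.7%), 51.9%, 44.8% and 42.0%. For GATA they were 13.6% (12.1 to 15.3%), 14.6%, 15.5% and 22.6%. Set against K562-only regions, members thus held more PU.1, RUNX and C/EBP matches and fewer GATA matches. Set against all distal regions of OCI-AML3, of which the members are a part, the shares were closer. In the regions of Molm13 and OCI-AML3 only, they were 13.6% for PU.1, 23.1% for RUNX, 53.0% for C/EBP and 13.6% for GATA. The contrast with K562-only regions was therefore not particular to members. At least 2 of the PU.1, C/EBP and RUNX motifs were present in 20.1% of members (18.3 to 22.1%), 18.5% of all distal regions and 10.9% of K562-only regions.

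For the remaining motifs the letters searched were TGATTNAT (HOX-MEIS), TGANTCA (AP-1), GAAANNGAA (IRF), TTCNNNGAA (STAT) and CCACACCC (KLF). Members held a HOX-MEIS match in 13.9%, against 17.2% of all distal regions, an AP-1 match in 32.6% against 35.9%, an IRF match in 35.5% against 38.0%, a STAT match in 27.4% against 30.8% and a KLF match in 10.6% against 8.63%. The windows differed in base composition between sets. The median GC content was 45.2% in members, 41.7% in all distal regions and 40.6% in K562-only regions, and its part in these shares was not tested. Members are also wider, so that more of the window lies within the region. The PU.1 share was no longer above that of all distal regions when weak peaks were left out. With a q-value below 0.001 in all 4 lists, 13.6% of the 759 regions then chosen held a match, against 14.3% of the distal regions kept. No interval was computed for this setting, and 607 of the 759 regions were members. By standing, the share was 18.0% (14.7 to 21.8%) in the 445 members of lowest standing and 13.0% (10.2 to 16.5%) in the 445 of highest.

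Matches were also counted by distance from the region midpoint. In members, PU.1 matches numbered 0.195 per kb of sequence within 200 bp of the midpoint and 0.0534 per kb at 1800 to 2000 bp. The outer bin lies outside most regions, since the third quartile of width was 3444 bp in members and 1514.5 bp in K562-only regions. RUNX matches numbered 0.311 and 0.197 per kb, and C/EBP matches 0.759 and 0.529. GATA matches numbered 0.145 per kb at the centre and 0.134 per kb in the outer bin. In K562-only regions GATA matches stood at 0.288 per kb in the centre and 0.147 in the outer bin, and C/EBP matches stood at 0.562 and 0.549. PU.1 matches were denser at the centre of K562-only regions too, with 0.0820 and 0.0456 per kb. The regions of all 4 lines had 0.180 PU.1 and 0.178 GATA matches per kb at the centre. These densities rest on 139 PU.1 and 103 GATA matches in the central bin of the members, and no interval was computed for them.

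The dCas9 list of K562 was a readout that the rule did not use. It held 392 peaks on the chromosomes used here, and 0 of 1778 members overlapped one, which allows a share of up to 0.169%. Of all distal OCI-AML3 regions, 22 of 21017 (0.105%) did, and of the regions of all 4 lines 4 of 1168 (0.342%). At the share of all distal regions the overlap with members was not detectable, since the limit lies above it. The members closest to a dCas9 peak lay 2.95 kb (nearest to ZNF687), 5.12 kb (SLC38A10) and 6.87 kb (MAP3K8) from it. Within 50 kb of a dCas9 peak lay 26 members (1.46%), against 1.76% of all distal regions.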

How the data were processed

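ChIP-seq peak lists of 5 samples were used, 4 for H3K27ac (broad peaks) and 1 for dCas9. The submitters' processing notes name Trim Galore 0.4.5, Bowtie2 2.3.4 and MACS2 2.1.1. Per the study's methods the authors aligned reads to hg38, kept uniquely mapped reads and called peaks per library at a q-value limit of 0.05, with broad calling for histone marks. The control library is not stated. The deposited values are, for each peak, a score derived from the q-value, the p-value and q-value as −log10, and the fold enrichment, a ratio to the background near the peak. In the 4 H3K27ac lists q-values reached 0.0947 to 0.0995, above that limit. Lists give no read numbers, so the depth per sample is unknown.

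Samples were grouped by their titles, and the other 14 of the 19 samples were not analysed here. Members were found with Python 3.11.15, NumPy 2.4.6 and pandas 2.3.3, and bedtools 2.31.1 gave the same number of 1778. TSSs and genes came from GENCODE v44 on hg38, and sequence was read from hg38 with pysam 0.24.0. Fold enrichments were compared between lists as percentiles within each list, because the authors' values are relative to each library's own background. Each group used had 1 library, so values were compared without a test. Named regions were the 20 members of highest standing, the 10 genes and 10 loci with most members, and up to 6 genes per list with a member within 50 kb, most members first, apart from a few items not reported here. The windows shown were among those of the highest standing whose nearest protein-coding gene was in the first 4 lists, at any distance. The widest members, SPI1 and further genes with several members and a promoter marked in the AML lines alone were added after the values were seen. Alternatives changed the q-value limit, overlap, TSS and K562 distances, starting list, peak joining, promoter window, motif window and gene distance. The overlap, TSS distance and motif code was first tested on simulated data. Members, gene lists and motifs were chosen with earlier results of these data known.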

Additional observations from a re-analysis of the deposited data

How the results depend on the processing

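Of 1778 members, 638 were left when at least 50% of the region had to be covered by Molm13 and by HL-60 peaks. A q-value below 0.001 left 607 when applied to the AML lists. Applied to all 4 lists it gave 759 regions, of which 607 were members. The rest overlapped a K562 peak that this limit dropped. The other settings gave 1366 (more than 5 kb from a TSS) to 2156 (HL-60 regions as the start), and starting from Molm13 regions gave 1848. With a q-value below 0.001 for promoter peaks, the shares of nearest genes marked were 66.9% in OCI-AML3, 58.2% in Molm13, 43.8% in HL-60 and 47.1% in K562, against 52.4%, 46.4%, 35.6% and 48.7% of all genes. For members with no K562 peak within 5 kb they were 70.2%, 64.9%, 51.1% and 49.7%. For members within 100 kb of the gene's TSS they were 71.6% in Molm13, 77.0% in OCI-AML3 and 57.4% in HL-60. As a ratio to all distal regions, the PU.1 share was 1.20. It was 0.949, with no interval computed, at a q-value below 0.001 in all 4 lists, where the IRF ratio moved from 0.936 to 0.865. In windows of 300 bp the RUNX ratio moved from 1.12 to 1.02 and the KLF ratio from 1.23 to 1.49. The causes were not tested. Within 20 kb in place of 50 kb, 41.7% of growth factor receptor and signalling genes and 30.8% of myeloid transcription factors had a member. The share was 4.17% of the erythroid genes, 8.33% of the granule and host defence genes and 6.90% of all genes. Within 100 kb it was 54.2% of the growth factor receptor and signalling genes, 42.3% of the myeloid transcription factors and 17.3% of all genes. The erythroid list then had 6 of 24, above the share of all genes and equal to the leukaemia stem cell list. No paired analysis was possible because 1 peak list stood for each group. Depth was unknown, so a K562 signal too weak to be called as a peak could not be told from its absence.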
